A study of Mus musculus with 6 samples.

Results

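The Mu-class and microsomal glutathione transferases were followed in mouse liver as 10 genes, Gstm1 to Gstm7 and Mgst1 to Mgst3, each found by its symbol among the 55536 genes of the deposited table. The study measured liver RNA from 6 C57BL/6 mouse samples aged 8 to 10 weeks, 1 library per sample. All carried floxed VMP1 alleles, which Cre recombinase can delete, and all received an intravenous AAV8 virus with the TBG promoter, which is active in hepatocytes. In 3 controls the virus was AAV8-TBG-null, with no Cre, and in the 3 samples labelled hepatocyte-specific VMP1 knockout it was AAV8-TBG-cre, in each case for 2 weeks. The VMP1 protein sits in endoplasmic reticulum membranes and has a part in autophagy and lipoprotein export, and liver cells other than hepatocytes would keep the gene. No label states whether each sample is its own animal. The p-values therefore reflect the spread among these libraries, part of which may be technical.

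Vmp1 itself was at 85.2 ± 13.3 TPM in controls and 143 ± 11.5 TPM in knockout-labelled livers (SD, n = 3 each). Its log2 fold change was 0.75 ± 0.13 (adjusted p = 3.8e-04) and became -0.18 (adjusted p = 0.2) under median-of-ratios scaling. The level of the whole gene is no test of which exons were deleted, so the groups are named here as the labels name them. TPM is a transcript abundance corrected for length and scaled to the same total in every library, and since it holds no read totals, sequencing depth is unknown. Levels are given in TPM. Fold changes are differences of log2(TPM + 1), labelled knockout minus control, with their SE, and adjusted p-values are Benjamini-Hochberg values from limma over the 12796 genes that reached 1 TPM in 3 or more libraries. Adding 1 makes the change of low genes look smaller than it is.

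Glutathione transferases join the tripeptide glutathione to reactive, electrophilic compounds, which makes them water-soluble and ready for export from the cell. The Mu class (Gstm) consists of soluble enzymes of the cytosol that work as dimers and are abundant in liver. The microsomal enzymes (Mgst) are unrelated in fold: they are small membrane proteins of the MAPEG family, which also holds leukotriene C4 synthase (Ltc4s) and the 5-lipoxygenase activating protein (Alox5ap). Many soluble transferase genes are known targets of NRF2 (Nfe2l2), a transcription factor held back by KEAP1, which binds antioxidant response elements together with small MAF proteins.

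The 7 Gstm genes form one cluster on mouse chromosome 3 (GRCm38, 107895821 to 108044894, a span of 149 kb), with no other protein-coding gene between them. In order of position these are Gstm5 (plus strand), Gstm7, Gstm6, Gstm3, Gstm2, Gstm1 and Gstm4 (all minus strand). Each has transcripts of up to 8 exons. The microsomal genes are dispersed, with Mgst1 on chromosome 6 (138140316 to 138156755), Mgst2 on chromosome 3 (51660360 to 51682677) and Mgst3 on chromosome 1 (167371966 to 167393841). Coding sequences of the Gstm genes were 68.2% to 89.4% identical over 21 pairs, highest for Gstm1 with Gstm3. The 3 Mgst pairs had a median identity of 49.7%. Between the families identity was 41.4% to 44.9%.

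Upstream sequences are shown for the 3 Gstm genes with the largest increases and for Gstm5, the member whose window held both motifs searched. They are RefSeq promoter sequences on GRCm38.p6, 5′ to 3′ on the gene's strand, cut where GENCODE places the gene's own transcripts. Capitals mark a match to the antioxidant response element core TGACNNNGC or the AP-1 site TGACTCA.
Gstm3 (chr3:107969284-107969424, minus strand): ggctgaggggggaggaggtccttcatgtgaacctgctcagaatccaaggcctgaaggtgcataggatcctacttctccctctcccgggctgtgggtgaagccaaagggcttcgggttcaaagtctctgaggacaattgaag
Gstm2 (chr3:107986454-107986670, minus strand): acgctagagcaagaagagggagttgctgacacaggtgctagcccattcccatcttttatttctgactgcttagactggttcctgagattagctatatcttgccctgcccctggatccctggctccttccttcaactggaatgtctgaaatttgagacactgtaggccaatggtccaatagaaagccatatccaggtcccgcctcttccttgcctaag
Gstm1 (chr3:108017974-108018223, minus strand): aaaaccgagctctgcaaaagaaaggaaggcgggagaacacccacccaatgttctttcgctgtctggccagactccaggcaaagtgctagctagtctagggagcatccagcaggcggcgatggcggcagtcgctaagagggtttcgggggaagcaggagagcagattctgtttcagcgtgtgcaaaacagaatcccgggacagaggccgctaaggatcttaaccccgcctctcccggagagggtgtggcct
Gstm5 (chr3:107895604-107895820, plus strand): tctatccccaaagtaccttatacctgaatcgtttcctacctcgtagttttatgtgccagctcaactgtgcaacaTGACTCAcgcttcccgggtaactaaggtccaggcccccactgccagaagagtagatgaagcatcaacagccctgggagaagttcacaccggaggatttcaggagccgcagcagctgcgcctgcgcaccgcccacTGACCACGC

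Both motifs were searched on both strands of the 300-base RefSeq windows, which run from 250 bases before to 50 after each annotated start. The motifs can overlap each other, and in the members no match of one overlapped a match of the other. All 10 members had a window (16 windows, since some genes have several starts). The element core lay in 3 of the 16 windows, against 12.4% of all 32851 windows in the table. The matches were TGACCACGC in Gstm5 (-42 to -34 from the start), TGACAAAGC in a downstream start of Gstm7 (-129 to -121) and, on the opposite strand, GCACGGTCA in Mgst1 (-56 to -48). The AP-1 site lay in 2 windows, in Gstm5 (-176 to -170) and Mgst2 (-52 to -46), against 5.20% of all windows. The windows of Gstm3, Gstm2 and Gstm1, whose transcripts rose most among the tested members, held neither set of letters. Nor did those of Gstm4, Gstm6 and Mgst3.

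All 7 Gstm genes and Mgst3 were higher in the knockout-labelled livers, Mgst1 was lower, and Mgst2 was too low for the main test. Gstm3 rose from 119 ± 22.4 to 5937 ± 222 TPM (SD, n = 3 each, as for all values given this way). Gstm1, the most abundant Gstm gene in both groups, rose from 2163 ± 462 to 16302 ± 420 TPM. Mgst1 fell from 5132 ± 270 to 3323 ± 133 TPM. The summed Gstm level was below the summed Mgst level in every control library and above it in every knockout-labelled library. In bulk tissue fewer cells of a type and less RNA per cell cannot be told apart.

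These calls stand in a table where most genes were called. Of the 9 members tested, 8 were higher and 1 lower, while of all 12796 genes tested 74.5% were higher and 10.7% lower. The groups did not overlap for 9 of 9 tested members, nor for 86.8% of all genes tested. The median log2 fold change was 2.19 over the 9 members and 0.77 over all genes tested, with 8 members above that median. Under median-of-ratios scaling, where the typical gene is taken as unchanged, fold changes were lower by a median of 0.83. With it 7 members were higher and 1 lower, against 35.1% and 36.6% of all genes. With quantile normalization 7 were higher and 0 lower, against 35.3% and 35.4%. The calls that depended on scaling were those of Gstm7 and Mgst1, given with each gene below. Counts in the gene lists below are to be read beside the same shares of all genes.

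Markers of liver cell types differed between the same libraries. Of 9 hepatocyte markers tested 7 were lower and 2 not called, with a summed level of 54210 to 72181 TPM in controls and 22758 to 25975 TPM in knockout-labelled livers. All 15 macrophage markers were higher (3 of them passed the filter only through knockout-labelled livers, as did 2 of the stellate markers), summing to 157 to 269 TPM in controls and 1746 to 2290 TPM in knockout-labelled livers, and so were all 12 stellate markers. All 12 endothelial markers were higher as deposited, and 8 of them with median-of-ratios scaling. Endothelial markers summed to 78.2 to 92.8 TPM in controls and 229 to 290 TPM in knockout-labelled livers, and stellate markers to 52.5 to 56.9 and 300.1 to 361 TPM. Of the cholangiocyte, granulocyte and mast cell, and lymphocyte markers, 7 of 10, 5 of 13 and 4 of 13 passed the filter. Of these 4, 4 and 4 were below 1 TPM in every control and so could pass only by being higher in knockout-labelled livers, and no count of calls is drawn from these lists. In the same order they summed to 40.4 to 56.8, 2.98 to 4.38 and 2.44 to 2.6 TPM in controls and to 198 to 237, 31.4 to 62.3 and 12.0 to 19.0 TPM in knockout-labelled livers. Mcpt4, a mast cell protease gene, was listed at 0 in all libraries, and Ly6g, Cpa3 and Fcer1a were at 0 in all controls. The part of cell makeup in the values of the transferases was not tested.

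**Figure D1:**
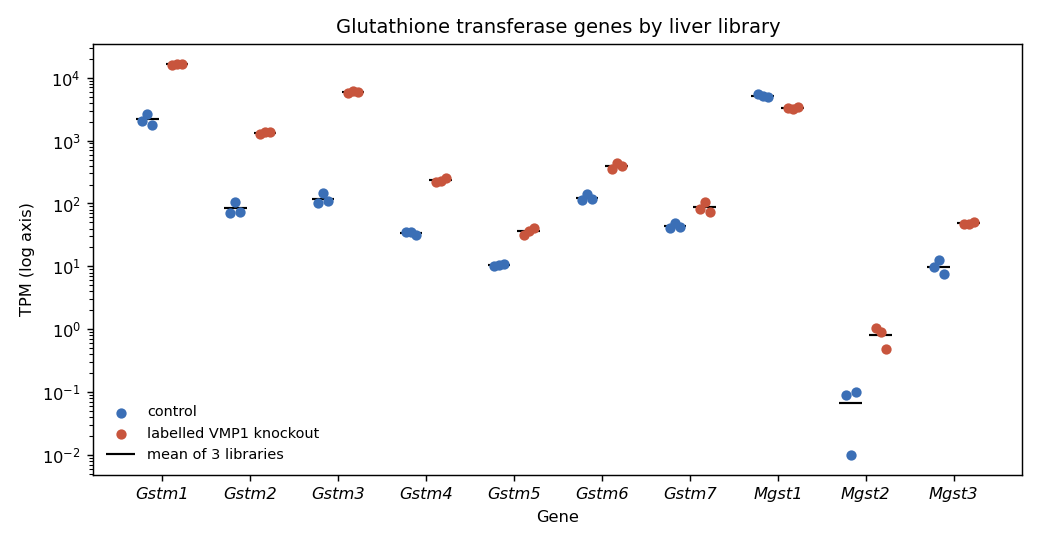
TPM (log axis) of the 10 genes in each of 3 control and 3 knockout-labelled libraries, with 1 point per library and a bar at each group mean. The 2 groups are apart for every gene, with knockout-labelled livers above the controls for all but Mgst1 (5132 and 3323 TPM on average, controls first).

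Gstm1 encodes the main Mu-class enzyme of mouse liver. Control libraries held 2022, 2679 and 1788 TPM, and knockout-labelled ones 15890, 16730 and 16284 TPM. All labelled knockout values lay far above the highest control, control replicate 2. The log2 fold change of Gstm1 was 2.93 ± 0.17 (adjusted p = 3.1e-07), and 1.99 with median-of-ratios scaling (adjusted p = 1.2e-05). By mean level Gstm1 stood at place 62 among all genes in the controls and at place 5 in knockout-labelled livers.

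Gstm3 is known as one of the transferase genes most responsive to antioxidant inducers in mouse liver. In TPM, its control values were 103, 144 and 109, and its knockout-labelled values 5706, 6147 and 5960. The knockout-labelled libraries stayed close, while control replicate 2 stood above the other controls. The gap between groups was many times the spread within them. The log2 fold change of Gstm3 was 5.65 ± 0.14 (adjusted p = 7.0e-09), the 31st largest of the 12796 genes tested, and 4.71 with median-of-ratios scaling (adjusted p = 3.1e-07). Gstm3 moved from place 737 to place 21 in the order of mean levels.

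Gstm2 encodes another cytosolic Mu transferase, whose human counterpart is known for its activity toward dopamine-derived quinones. Control libraries held 70.4, 106 and 73.9 TPM, and knockout-labelled ones 1289, 1344 and 1390 TPM. Its groups were well separated, and control replicate 2 was again the highest control. The log2 fold change of Gstm2 was 4.02 ± 0.15 (adjusted p = 4.2e-08), and 3.08 with median-of-ratios scaling.

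Gstm4, at the far end of the cluster, was less abundant. In TPM, its control values were 35.0, 35.4 and 32.0, and its knockout-labelled values 219, 228 and 257. The controls were nearly equal, and all knockout-labelled libraries were several times higher. The log2 fold change of Gstm4 was 2.74 ± 0.10 (adjusted p = 3.5e-08), and 1.81 with median-of-ratios scaling.

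Gstm6, Gstm5 and Gstm7 rose less than the other Gstm genes. Controls had 114, 140 and 116 TPM of Gstm6, against 358, 442 and 394 TPM in knockout-labelled livers. Its log2 fold change was 1.68 ± 0.12 (adjusted p = 1.4e-06), and 0.74 with median-of-ratios scaling (adjusted p = 9.3e-04). In the controls its range overlapped that of Gstm3, while in knockout-labelled livers Gstm6 was far below it.

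Gstm5, the divergent member on the opposite strand, belongs to a subtype best known from brain and testis. Control libraries held 10.3, 10.5 and 11.1 TPM, and knockout-labelled ones 31.6, 36.8 and 40.6 TPM. Its log2 fold change was 1.68 ± 0.11 (adjusted p = 7.7e-07), and 0.78 with median-of-ratios scaling (adjusted p = 6.5e-04). The antisense gene 4933431E20Rik overlaps Gstm5, shares 9.44% of its 50-base stretches and went from 0.74 ± 0.292 to 3.43 ± 0.201 TPM. The strand setting is not given in the sources used here, so reads of Gstm5 and 4933431E20Rik cannot be told apart where they overlap.

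Gstm7 was the Gstm gene with the smallest change. In TPM, its control values were 41.2, 49.1 and 41.6, and its knockout-labelled values 80.8, 105 and 73.9. The groups did not overlap, but knockout-labelled replicate 2 stood above the other 2. As deposited the log2 fold change of Gstm7 was 0.95 ± 0.14 (adjusted p = 1.4e-04), with 60.1% of all tested genes having a lower value. It was 0.02 (adjusted p = 0.9) with median-of-ratios scaling and 0.30 (adjusted p = 0.1) with quantile normalization, where Gstm7 was not called.

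Mgst1 encodes a transferase and lipid peroxidase of the endoplasmic reticulum and outer mitochondrial membrane, and it was the most abundant member in the controls. Control libraries held 5429, 5064 and 4902 TPM, and knockout-labelled ones 3338, 3183 and 3449 TPM. All 3 knockout-labelled libraries were below the lowest control. The log2 fold change of Mgst1 was -0.63 ± 0.12 (adjusted p = 8.7e-04) in the deposited TPM, and -1.57 under median-of-ratios scaling (adjusted p = 1.1e-05). With quantile normalization it was -0.05 (adjusted p = 0.66), and Mgst1 was not called lower. In the order of mean levels its place was 32 in the controls and 35 in knockout-labelled livers.

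Mgst3, a small membrane enzyme with glutathione peroxidase activity, moved the other way. Control libraries held 9.81, 12.5 and 7.61 TPM, and knockout-labelled ones 47.7, 46.4 and 50.6 TPM. The knockout-labelled libraries were tightly grouped above the controls. The log2 fold change of Mgst3 was 2.19 ± 0.15 (adjusted p = 1.2e-06), and 1.29 with median-of-ratios scaling (adjusted p = 5.5e-05).

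Mgst2, which has leukotriene C4 synthase activity, was listed near 0. In TPM, its control values were 0.09, 0.01 and 0.1, and its knockout-labelled values 1.06, 0.92 and 0.49, so it did not pass the filter. In a fit without the filter its log2 fold change was 0.76 ± 0.13 (adjusted p = 0.0025). That fit called 9 members higher and 1 lower, against 44.3% and 5.7% of 28532 genes. How many reads stand behind values this low is unknown.

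**Figure D2:**
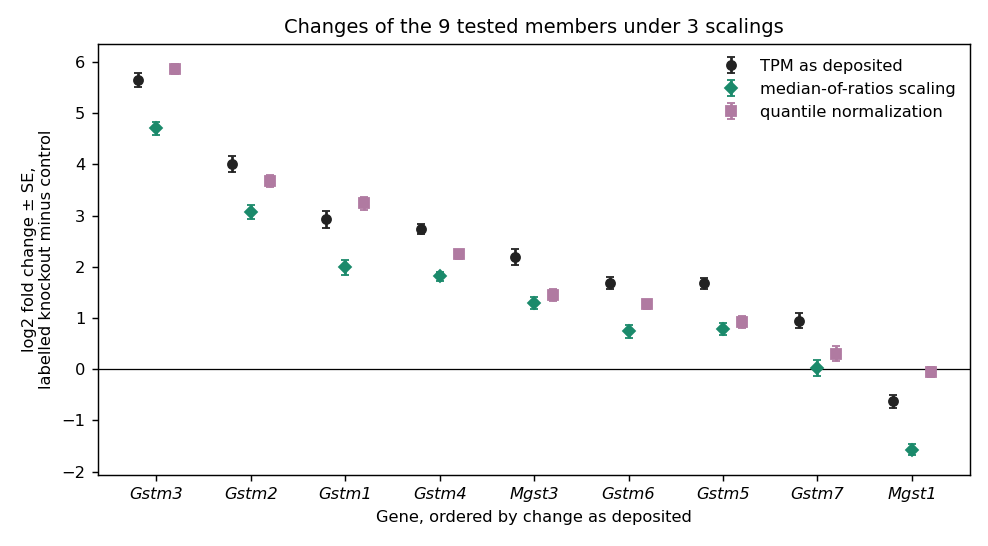
Log2 fold change ± SE of the 9 tested genes under 3 scalings between libraries, in order of the change as deposited. Gstm3 is highest under each of the 3 (5.65, 4.71 and 5.86), Gstm7 reaches 0.02 with median-of-ratios scaling and Mgst1 reaches -0.05 with quantile normalization.

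Levels were also summed over each family, and shares were taken within it. A share does not depend on linear scaling between libraries. The 7 Gstm genes summed to 2396, 3164 and 2172 TPM in controls, against 23573, 25033 and 24399 TPM in knockout-labelled livers. That is 0.258% of all TPM in controls and 2.43% in knockout-labelled livers. The 3 Mgst genes together held 5142 ± 271 and 3372 ± 135 TPM, controls first. Mgst1 made up 99.8% of that sum in controls and 98.5% in knockout-labelled livers.

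The make-up of the Mu class also differed between the groups. Gstm1 made up 83.8 ± 1.27% of the Gstm sum in controls and 67.0 ± 0.361% in knockout-labelled livers. Gstm3 made up 4.63 ± 0.372% and 24.4 ± 0.178%, in the same order. Gstm2 went from 3.23 ± 0.252% to 5.51 ± 0.169%, the only other member whose share was larger. The shares of Gstm4 (1.35% and 0.965%), Gstm5 (0.423% and 0.149%), Gstm6 (4.84% and 1.63%) and Gstm7 (1.73% and 0.355%) were smaller. The groups did not overlap for any of the 7 shares, each with a two-sided exact permutation p = 0.1, the smallest that 3 libraries against 3 can give, so adjusted values cannot be below 0.1 either.

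**Figure D3:**
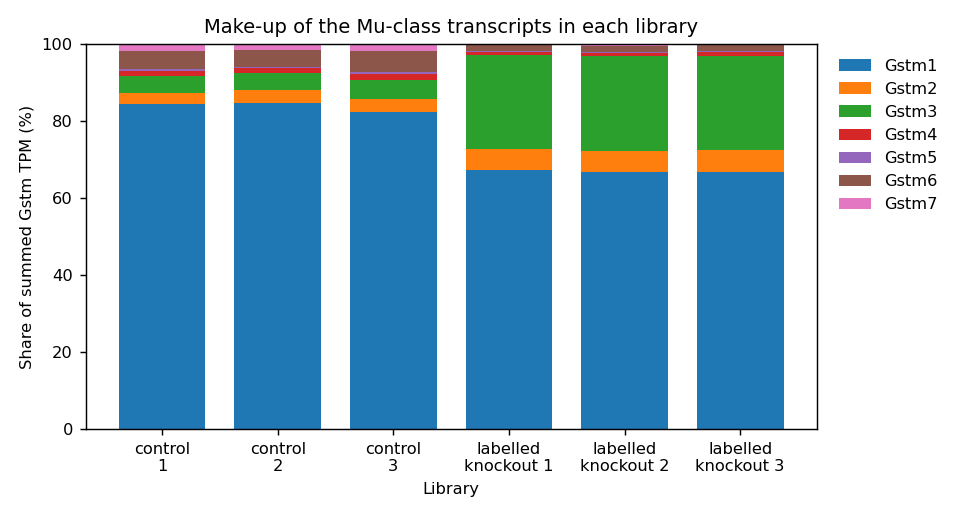
Share (%) of each Gstm gene in the summed Gstm TPM, 1 stacked bar per library from 0 to 100. Gstm3 takes about 4.63% of the bar in the controls and 24.4% in knockout-labelled livers, while Gstm1 goes from 83.8% to 67.0%.

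Ratios of TPM + 1 to Gstm1 were taken within each library for the 9 other members. The log2 ratio of Gstm3 to Gstm1 was -4.28, -4.20 and -4.02 in the controls and -1.48, -1.44 and -1.45 in knockout-labelled livers, a difference of 2.71. For Gstm2 the difference in this ratio was 1.08. Relative to Gstm1 other members were lower in knockout-labelled livers, with differences of -1.25 for Gstm5, -1.25 for Gstm6, -1.98 for Gstm7, -0.74 for Mgst3 and -3.56 for Mgst1. For each of these 7 ratios the groups did not overlap, with exact permutation p = 0.1. Gstm4 did not separate from Gstm1 (difference -0.19, groups overlapping, exact permutation p = 0.4), nor did Gstm6 from Gstm5 (difference in fold change 0.0028, exact permutation p = 1), which with 3 libraries a group does not show that they moved alike. In order of fold change the tested members were Gstm3, Gstm2, Gstm1, Gstm4, Mgst3, Gstm6, Gstm5, Gstm7 and Mgst1. Apart from those 2 neighbouring pairs, the within-library ratio of each pair of neighbours in this order did not overlap between groups.

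The order of levels changed as well. In controls it ran Mgst1, Gstm1, Gstm6, Gstm3, Gstm2, Gstm7, Gstm4, Gstm5, Mgst3 and Mgst2. The ranges of Gstm6 with Gstm3, Gstm3 with Gstm2 and Gstm5 with Mgst3 overlapped there. In knockout-labelled livers it ran Gstm1, Gstm3, Mgst1, Gstm2, Gstm6, Gstm4, Gstm7, Mgst3, Gstm5 and Mgst2, with no overlap between neighbours. Members above 1000 TPM on average numbered 2 in controls and 4 in knockout-labelled livers.

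The 4 largest Gstm changes were in neighbouring genes. Gstm3, Gstm2, Gstm1 and Gstm4, which follow each other at the end with the higher coordinates, had log2 fold changes of 2.74 to 5.65. Gstm5, Gstm7 and Gstm6 at the other end had 0.95 to 1.68. Within 200 kb on either side lie 11 other protein-coding genes, 7 of which were tested. Of these 6 were higher and 1 lower as deposited, where 74.5% of all genes tested were higher, with a median log2 fold change of 0.48 against 2.74 for the Gstm genes. Atxn7l2, 1 of the 6, was at 0.617 ± 0.142 TPM in controls and 1.26 ± 0.165 TPM in knockout-labelled livers. Atxn7l2 passed the filter only through knockout-labelled livers, so it could only be higher, and it counts in that flanking median. Under median-of-ratios scaling 1 flanking gene (Csf1) was higher, 4 were lower and 2 were not called, and the medians were -0.25 and 1.81. The largest flanking change was in Csf1, the macrophage growth factor gene, at 2.75 ± 0.14. The flanking genes were named after their values were seen.

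**Figure D4:**
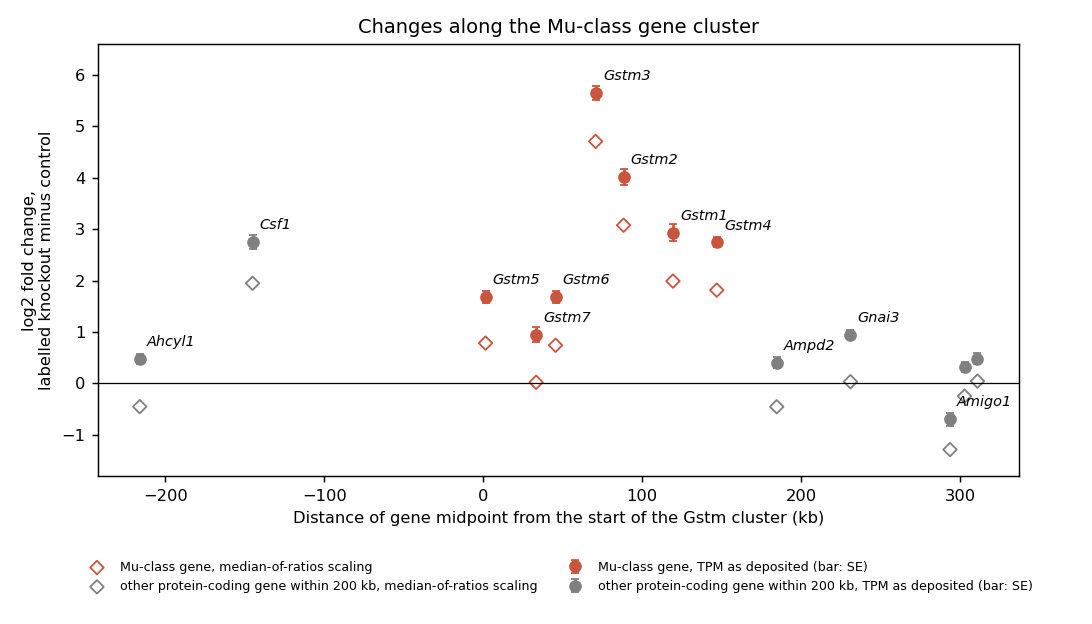
Log2 fold change (labelled knockout minus control) against the distance of each gene's midpoint from the start of the Gstm cluster, in kb, for Gstm genes and for other tested protein-coding genes within 200 kb. Filled points are TPM as deposited with SE bars and open diamonds are median-of-ratios scaling. The highest point is Gstm3 (5.65), and the flanking genes run from -0.69 to 2.75.

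Read assignment limits the single values of the closest paralogs. Of the 50-base stretches in the annotated transcripts of Gstm3, 71.2% occur in no other gene, and for Gstm1 this was 81.1%. It was 94.3% for Gstm2, 94.0% for Gstm6, 90.6% for Gstm5, 99.5% for Gstm7 and Mgst2, and 100% for Gstm4, Mgst1 and Mgst3. Gstm1 and Gstm3 share 124 such stretches, which is 8.16% of those of Gstm1 and 9.83% of those of Gstm3. With 100-base stretches the share found in no other gene was 86.2% for Gstm3 and 94.1% for Gstm1. How the reads were divided was not tested, and the read length is not given in the sources used here.

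Control replicate 2 held the highest control value in 7 of the 10. The coefficient of variation over controls was 21.3% for Gstm1, 23.4% for Gstm2 and 18.9% for Gstm3, against 2.58%, 3.78% and 3.73% in knockout-labelled livers. Leaving out control replicate 2 raised the log2 fold change of Gstm1 to 3.10 and that of Gstm3 to 5.79, and no member lost its call.

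Genes that make and recycle glutathione moved in 2 directions. Of 10 tested, 6 were higher and 4 lower, and the same 10 calls were made with median-of-ratios scaling. Their median log2 fold change was 2.06, against 0.77 for all genes tested. Those higher included both subunits of glutamate-cysteine ligase, the first step of synthesis, with log2 fold changes of 3.14 for Gclc and 1.58 for Gclm. Slc7a11, the cystine importer subunit, was listed at 0 in all controls and at 11.2 ± 2.1 TPM in knockout-labelled livers. The 4 lower genes encode enzymes on the route from methionine to cysteine. Their log2 fold changes were -0.66 for Mat1a, -1.40 for Ahcy, -0.45 for Cbs and -0.36 for Cth. The groups of Cth overlapped, and without the filter its call was lost (adjusted p = 0.065), which left 3 lower. Slc7a11 passed the filter only through knockout-labelled livers.

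Of 14 tested genes of glutathione breakdown and conjugate export, 6 were higher, 1 lower and 7 not called as deposited (median log2 fold change 0.15), and under median-of-ratios scaling 5 were higher and 8 lower. Ggt1, Ggt5, Abcc1 and Abcc4, which are 4 of the 6, were below 1 TPM in every control and passed the filter only because they were higher in knockout-labelled livers. Of the 10 others 2 were higher. Abcc4, a basolateral exporter, rose from 0.353 ± 0.0814 to 48.0 ± 8.31 TPM. Abcc2, the canalicular pump that carries glutathione conjugates into bile, was at 125 in controls and 145 TPM in knockout-labelled livers, with a log2 fold change of 0.20 (adjusted p = 0.081). Abcc2 was called lower under median-of-ratios and quantile scaling.

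Glutathione peroxidases, glutaredoxins and related enzymes were tested in 15 genes, with 11 higher and 2 lower, against 74.5% and 10.7% of all genes tested. The share called higher was thus close to that of all genes. Under median-of-ratios scaling 8 were higher and 5 lower, against 35.1% and 36.6% of all genes. As deposited these 15 had a median of 1.19 in log2 fold change. Gpx2 and Gpx8 were among the 11 and passed the filter only through knockout-labelled livers. Of the 13 others 9 were higher. Gpx2, a peroxidase best known from gut epithelium, rose from 0.0533 ± 0.0115 to 24.0 ± 6.03 TPM. Hagh, a glyoxalase that frees glutathione from its lactoyl adduct, fell from 248 ± 5.35 to 106 ± 13.4 TPM. Gpx1, the main liver peroxidase, was at 2248 and 2064 TPM, controls first, and was not called as deposited (adjusted p = 0.34) but was lower under median-of-ratios scaling (-1.07).

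Of 14 tested genes of other transferase classes, 7 were higher, 2 lower and 5 not called (median log2 fold change 1.22), and under median-of-ratios scaling 5 were higher and 6 lower. Hpgds, 1 of the 7, was at 0.243 ± 0.0907 TPM in controls and 4.62 ± 0.195 TPM in knockout-labelled livers. Hpgds passed the filter only through knockout-labelled livers. Of the 13 others 6 were higher as deposited. The lower call of Gstk1, a mitochondrial transferase, was lost without the filter (adjusted p = 0.066), which left 1 lower. Its groups overlapped, with 99.13, 106 and 103 TPM in controls and 49.4, 99.21 and 49.2 TPM in knockout-labelled livers. The alpha-class gene Gsta1 rose from 7.75 ± 2.81 to 2024 ± 59.9 TPM and the zeta-class gene Gstz1, an enzyme of tyrosine breakdown, fell from 386 ± 48.9 to 231 ± 11.6 TPM. Gstp1, the pi-class gene, was at 5641 and 6174 TPM, controls first, and was not called as deposited (adjusted p = 0.35). It was lower under median-of-ratios scaling (-0.81) and higher with quantile normalization (0.90). In knockout-labelled livers Gstm1 was above Gstp1, while in the controls Gstp1 was above Gstm1.

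Other known NRF2 targets were higher in 19 of 19 tested genes, with a median log2 fold change of 2.61, and under median-of-ratios scaling 17 were higher and 2 lower (Me1 and Aox1). Without the filter Aox1 was not called (adjusted p = 0.07). Cbr3, a carbonyl reductase gene that passed the filter only through knockout-labelled livers, rose from 0.33 ± 0.0656 to 300 ± 18.5 TPM. Of the 18 other targets tested 18 were higher as deposited. Among 10 regulators 7 were higher and 1 lower as deposited (median log2 fold change 0.65), against 74.5% and 10.7% of all genes tested. With median-of-ratios scaling 3 were higher and 5 lower, against 35.1% and 36.6%. Nfe2l2 had a log2 fold change of 1.91 and was higher with both scalings, as was the small MAF gene Mafk at 2.54. Nr1i3, which encodes CAR, a xenobiotic receptor that also acts on transferase genes, fell from 156 ± 31.7 to 16.2 ± 4.61 TPM (log2 fold change -3.21).

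Relatives of the microsomal enzymes and eicosanoid genes were tested in 6 of 11 cases, all higher as deposited (median log2 fold change 0.92), and 2 higher and 1 lower with median-of-ratios scaling. Alox5ap, of the same protein family as the Mgst enzymes and expressed by myeloid cells, rose from 2.14 ± 0.544 to 24.6 ± 2.84 TPM. Ltc4s was at 0.457 and 1.62 TPM, controls first, and likewise passed the filter only through the latter. Lta4h, whose product hydrolyses leukotriene A4, was called higher as deposited (0.56), but lower under median-of-ratios scaling (-0.34).

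Likeness of pattern was measured as Pearson's correlation of log2(TPM + 1) over the 6 libraries, among 8028 genes with a mean of at least 5 TPM. The 3 genes most like Gstm3 were Sat1 (r = 0.9999), H13 (r = 0.9998) and Avpi1 (r = 0.9998), but 1741 genes had r above 0.99. The 3 most like Mgst1 were Apon (r = 0.9986), Mgll (r = 0.9982) and Etfdh (r = 0.9972), with 25 genes above 0.99. All share the same libraries, so these values are a description of them.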

How the data were processed

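Liver RNA libraries of 3 control and 3 labelled VMP1 knockout samples were compared, with groups taken from the sample titles. The authors deposited 1 table in TPM per gene and library, and STAR 2.6.1c, RSEM, edgeR and the build mm10 are listed in the submitters' processing notes without role or order. No source used here gives depth, read length or strand setting. Genes reaching 1 TPM in 3 or more libraries were fitted on log2(TPM + 1) with limma 3.58.1 (R 4.3.3), using an intensity trend, robust variances and Benjamini-Hochberg adjustment at 0.05, with no replicate block. The procedure was also run on simulated data, with equal numbers of raised and lowered genes and most genes unchanged. These data differ, since most genes were called higher, so that run does not bear on the choice of scaling. For shares and ratios within a library, two-sided exact permutation tests ran over 20 assignments (scipy 1.17.1). Lists are described by counts, with no list test.

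Positions, transcripts and coding sequences come from GENCODE M21 (GRCm38, which is mm10), where 55450 of 55536 identifiers matched. Coding sequences were aligned globally (Biopython 1.88) as nucleotides, in place of the protein alignment first planned. The members and lists were chosen with earlier results of these data known. Named genes were all members, Vmp1, and from each list the called gene with the largest rise and fall among genes with a mean of at least 5 TPM. The genes Gclc, Gclm, Mat1a, Cbs, Cth, Gstk1, Hpgds, Gpx1, Gpx8, Ggt1, Ggt5, Abcc1, Gstp1, Abcc2, Ltc4s, Lta4h, Me1, Aox1, Nfe2l2, Csf1, Atxn7l2, Amigo1, Cyb561d1 and the pseudogenes were chosen after their values were seen. Alternatives changed the pseudocount, filter, scaling, variance model, threshold and block, and left out each library. Of the hepatocyte markers listed, 9 of 10 were matched by symbol.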

Additional observations from a re-analysis of the deposited data

How the results depend on the processing

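Each of the 9 tested members kept its direction under every setting run, and all kept their call except Gstm7 and Mgst1. Gstm7 was not called with median-of-ratios scaling (0.02, adjusted p = 0.9) or quantile normalization (0.30, adjusted p = 0.1), and Mgst1 not with quantile normalization (-0.05), which left 0 members lower by limma (also 0 at an unadjusted p under 0.05); the cause was not tested. A pseudocount of 0.1, no filter, no trend or robust variances and a threshold of 0.01 changed no member's call, and 8 were higher and 1 lower with any library left out. Vmp1 reversed to -0.18 with median-of-ratios scaling. Deviations of same-numbered libraries correlated at 0.08, 0.04 and -0.12, and those of differently numbered libraries at -0.14 to 0.10. These values show no pairing by replicate number, but with 3 libraries a group they cannot exclude it. With the replicate number as a block 8 members were higher and 1 lower, with Gstm3 at 5.65 and Mgst1 at -0.63. With a pseudocount of 0.1 the change in the log2 ratio to Gstm1 was -0.47 for Mgst2 (-2.17 with 1) and -0.64 for Mgst3, both low genes. The plain ratio of Mgst2 to Gstm1 TPM, averaged over libraries, was higher in knockout-labelled livers (5.06e-05) than in controls (3.47e-05). With median-of-ratios scaling lower calls rose from 2 to 6 for other transferase classes, 1 to 8 for breakdown and export, 2 to 5 for peroxidases, 0 to 2 for NRF2 targets and 1 to 5 for regulators. Without the filter lower calls fell from 2 to 1 for other transferase classes (Gstk1 lost) and from 4 to 3 for glutathione synthesis (Cth lost). Median-of-ratios scaling lowered fold changes by a median of 0.83. With a knockout-labelled library left out, Slc7a11, Abcc4, Gpx2 and Cbr3 did not pass the filter and gave no value. Depth is unknown, which limits Mgst2 most.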

Other observations

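Transcripts of 3 Gstm pseudogenes were listed at levels that were higher in knockout-labelled livers, as for the genes. Gstm2-ps1 was at 5.52 ± 1.14 TPM in controls and 45.4 ± 1.84 TPM in knockout-labelled livers, Gm8834 at 6.70 ± 1.30 and 77.3 ± 2.71 TPM, and Gm6665 at 4.05 ± 0.757 and 29.7 ± 0.859 TPM. Summed, they equalled 0.632% of the Gstm sum in controls and 0.626% in knockout-labelled livers. Gm8834 shares 202 of the 1262 50-base stretches of Gstm3, and Gstm2-ps1 shares 215 of the 1520 of Gstm1. How much of these values is reads of the genes they copy was not tested.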
